A study of Mus musculus with 8 samples.

Results

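The genes described here are 10 transcription factors of the oligodendrocyte (OL) lineage: *Olig1*, *Olig2*, *Sox10*, *Sox8*, *Sox17*, *Nkx2-2*, *Nkx6-2*, *Myrf*, *Zfp488* and *Zeb2*. They were picked by symbol from a table of 23427 genes, and all 10 were found, *Myrf* under its older name *Gm98*. The table gives mRNA levels as FPKM, which corrects fragment counts for transcript length and library depth, a scale on which genes of different length can be compared. The cells were wild-type C57BL/6J mouse oligodendrocyte precursor cells (OPCs), panned from the pooled cortices of early postnatal pups with an antibody against PDGFRα and grown in culture. The pups were about 1 week old, per the study's methods. OPCs were harvested at Day 0 or after 1, 2 or 3 days of differentiation, for which, per the study's methods, the growth factor PDGF-AA was withdrawn and the thyroid hormone T3 was supplied, with 2 independent replicates on each day and 8 libraries in all. The sample labels give DMEM with fetal bovine serum as the medium in which the OPCs were kept, while the study's methods give a defined OPC medium with growth factors. Which of them held for these libraries was not settled here. No libraries of cells kept undifferentiated for the same time were analysed here, so time in culture, growth factor withdrawal, T3 and differentiation cannot be told apart. In bulk RNA, fewer cells of a type and less RNA per cell cannot be told apart either.

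OPCs leave the cell cycle and become myelinating OLs under a set of transcription factors that act in steps. Olig1 and Olig2, basic helix-loop-helix proteins that pair with E proteins, specify the lineage, and the HMG-box proteins Sox10 and Sox8 maintain it and open the myelin genes. Nkx2-2 and Nkx6-2 are homeodomain repressors, Myrf is a membrane-bound factor whose released N-terminal part activates myelin genes in mature OLs, and the zinc finger proteins Zfp488 and Zeb2 promote differentiation by repressing inhibitory programs.

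Depth, estimated from the value of 1 fragment in genes with a single transcript, was 960000 to 1530000 fragments per library, and the estimate is approximate because 52.7% to 57.3% of low values came out as whole fragments within 0.05. *Sox17*, an HMG-box factor that has been placed at the OPC to OL transition, was listed at 0 in all 8 libraries, where 3 fragments would read 0.603 to 0.966 FPKM. All 10 ubiquitous genes checked and all 73 ribosomal protein genes were above 0 in every library. *Sox17* was therefore not detectable at this depth, and the other 9 factors passed the filter of 1 FPKM in at least 2 libraries. The 10 factors together summed to between 1549 FPKM in Day 3 replicate 2 and 1972 FPKM in Day 1 replicate 2, or 0.431% to 0.521% of all FPKM in a library.

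The order of the factors changed with time. On Day 0 it ran *Olig1*, *Sox10*, *Olig2*, *Sox8*, *Zfp488*, *Myrf*, *Nkx2-2*, *Zeb2* and *Nkx6-2*. Within the run from *Zfp488* to *Zeb2* the libraries of neighbours overlapped, and those of all other neighbours in the order did not. On Day 1 *Sox10* was the most abundant, followed by *Olig1*, then *Sox8*, *Nkx2-2*, *Myrf* and *Olig2*. Neighbours in the run from *Sox8* to *Olig2* overlapped, and *Olig2* did not overlap with *Zeb2*, the next below it. On Day 3 *Sox10* and *Olig1* overlapped at the top, *Myrf* came next and *Nkx2-2* was the lowest of the 9 detected factors.

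**Figure D1:**
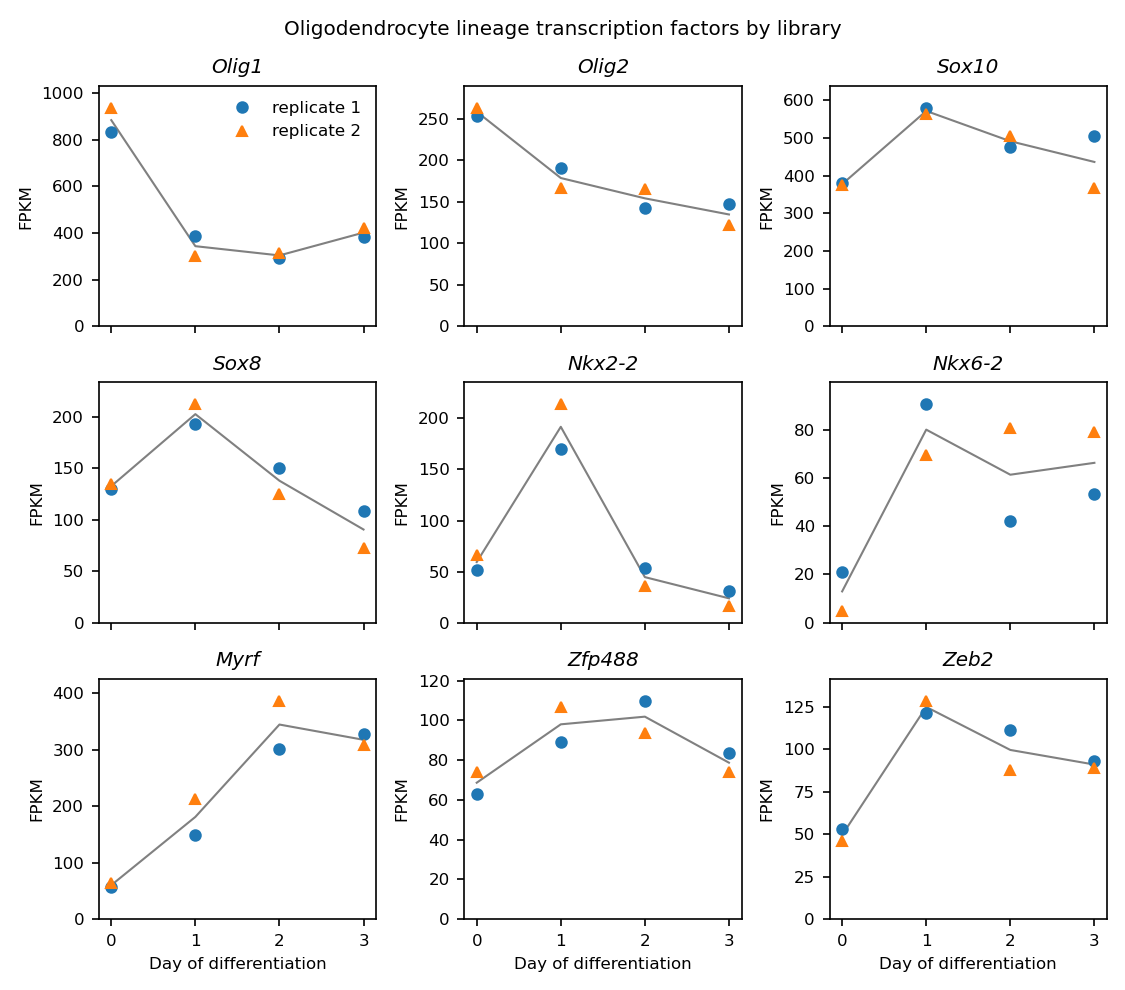
FPKM (vertical axes, each starting at 0) of the 9 detected factors by day of differentiation (horizontal axes), with 1 symbol per library and a grey line through the mean of the 2 libraries of a day. *Olig1* was highest on Day 0 at 831 and 936 FPKM, *Nkx2-2* on Day 1 at 170 and 214 FPKM, and *Myrf* went from 56.1 and 63.9 FPKM on Day 0 to 327 and 308 at Day 3.

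Between successive days, most calls of the factors came from Day 0 to Day 1. The same held for all genes, with 1538 called in that step, then 475 and 36 in the later ones. The comparisons share libraries of the days they have in common. Tested with limma on log2(FPKM + 1) over all 12208 genes that passed the filter, with adjustment over all of them, 5 of the 9 factors were higher on Day 1 than at Day 0, against 5.04% of all genes, and 2 were lower, against 7.56%. With median ratio scaling *Sox8* and *Zfp488* were also higher on Day 1 than at Day 0 (5.82% of all genes), and *Olig2* was no longer called lower (6.33%). From Day 1 to Day 2, 1 factor was higher (2.16% of all genes) and 1 was lower (1.73%). From Day 2 to Day 3 limma called 0 factors higher (0.246% of all genes) and 0 lower (0.0491%), while 1 was higher and 3 were lower at an unadjusted p under 0.05, as were 849 and 924 of all 12208 genes.

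Over the whole course, 3 factors were higher on Day 3 than at Day 0, against 12% of all genes, and 4 were lower, against 26.3%. With median ratio scaling 8 factors were called, against 7 as deposited. *Sox10* and *Zfp488* were then also higher (17.5% of all genes) and *Sox8* was no longer called lower (16.8%). Same-sum scaling called 6 factors (14.3% of all genes higher, 20.8% lower) and quantile normalization 7 (17.0% and 17.9%). A comparison of Day 3 with Day 1 was added after several factors were seen to be highest at Day 1, and there 1 factor was higher (7.04% of all genes) and 2 were lower (12.2%). With quantile normalization *Olig1* was also called higher there (log2 change 0.65, limma adjusted p = 0.0214, against 8.25% of all genes). As deposited its change was 0.23 (limma adjusted p = 0.338). For any change over the 4 days, the limma F test called 7 of the 9 factors and 35.2% of all genes. The 2 outside the call were *Sox10* (adjusted p = 0.0755) and *Zfp488* (adjusted p = 0.0565). The F test called 9 factors after same-sum or median ratio scaling (32.0% and 30.6% of all genes) and 8 after quantile normalization (31.2%) or with a filter of 10 FPKM (46.5%). It called 8 without Day 3 replicate 1 (33.6%) or Day 3 replicate 2 (27.6%), and 5 without Day 0 replicate 2 (18.8%).

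The median log2 change of all genes tested was -0.31 from Day 0 to Day 3, -0.07 from Day 0 to Day 1, -0.19 from Day 1 to Day 2, -0.02 from Day 2 to Day 3 and -0.20 from Day 1 to Day 3. Changes of single genes below are given as fitted and, where the median moved by more than 0.1, also relative to all genes. The split of all calls depended on the scaling: 1460 genes were higher and 3207 lower from Day 0 to Day 3 as deposited, 2138 and 2043 after median ratio scaling, and 2075 and 2189 after quantile normalization. For Day 0 to Day 1 the split was 615 and 923, and 836 and 831 after quantile normalization. From Day 1 to Day 2 it was 264 and 211, 371 and 103 after median ratio scaling, and 294 and 131 after quantile normalization, but 367 and 436 with the replicate block, 271 and 294 without Day 3 replicate 1, and 272 and 302 without Day 3 replicate 2. From Day 2 to Day 3 it was 30 and 6, and it turned to 79 and 170 without Day 3 replicate 1. From Day 1 to Day 3 it was 859 and 1485, 1148 and 785, and 1007 and 988.

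**Figure D2:**
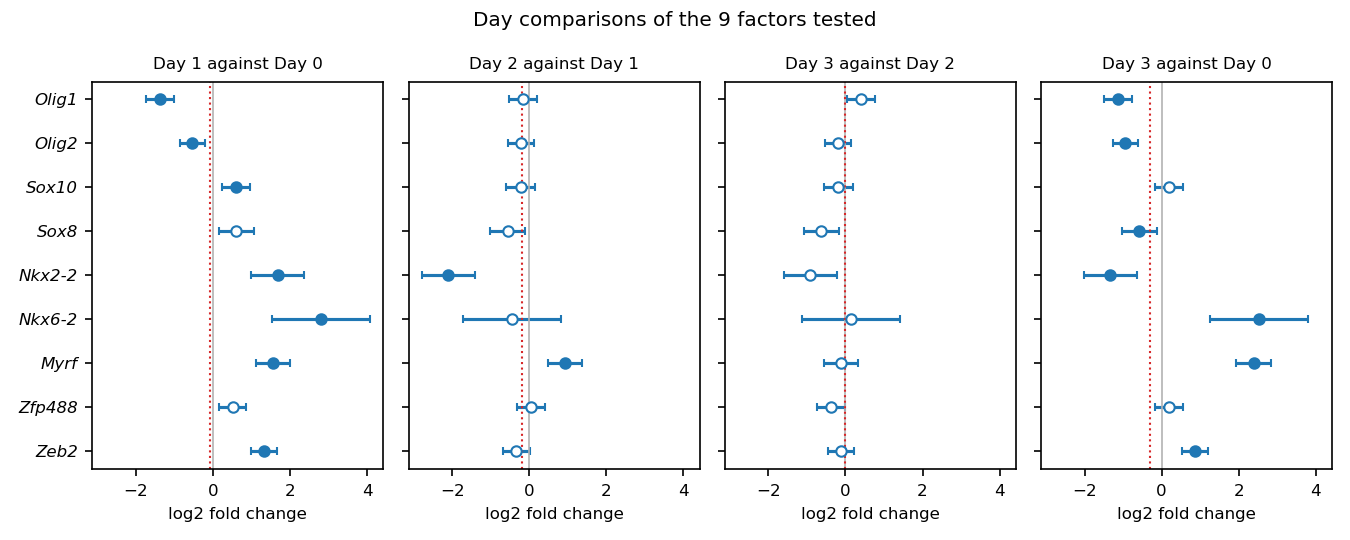
Log2 fold change (horizontal axes) of the 9 tested factors between the days named above each panel, as points with 95% confidence intervals from limma. Filled points passed an adjusted p of 0.05, the grey line marks 0, and the dotted line marks the median of all 12208 genes tested, which lay at -0.31 for Day 3 against Day 0.

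*Olig1*, a single-exon gene at chr16:91269772-91271933 on the plus strand, read 831 and 936 FPKM at Day 0, 387 and 300 at Day 1, 294 and 313 at Day 2, and 381 and 422 at Day 3. Both Day 0 libraries were above all 6 later ones, and the values were lowest in Day 1 replicate 2 and at Day 2. The log2 change from Day 0 to Day 1 was -1.37 (SE 0.16, limma adjusted p = 0.0014), which left 38.9% of the Day 0 mean. From Day 0 to Day 3 it was -1.13 (SE 0.16, limma adjusted p = 0.00103), or -0.82 relative to all genes, and -0.54 after quantile normalization, still called (adjusted p = 0.0231). Both libraries of Day 3 were above both of Day 2, a difference of 0.40 on the log2 scale (SE 0.16) that did not pass the test (limma adjusted p = 0.302).

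*Olig2* lies 5′ of *Olig1* on the same chromosome and strand, at chr16:91225457-91228677. It read 254 and 263 FPKM at Day 0, 190 and 167 at Day 1, 143 and 165 at Day 2, and 147 and 122 at Day 3. Day 0 was above Day 1 and Day 1 above Day 2 with no overlap, Days 2 and 3 overlapped, and the Day 3 mean was 52.1% of the Day 0 mean. The log2 change from Day 0 to Day 3 was -0.94 (SE 0.15, limma adjusted p = 0.00164), or -0.63 relative to all genes and -0.62 after median ratio scaling, and it was called under every scaling and without each library in turn. The change over the first day was -0.53 (SE 0.15, limma adjusted p = 0.0482), and this call was lost without any of the 6 libraries of Days 0, 1 and 2 (log2 change -0.63 to -0.44, adjusted p 0.0635 to 0.233), under all 3 other scalings, and with a pseudocount of 0.1 (adjusted p = 0.0568), no filter (adjusted p = 0.0658) or no trend (adjusted p = 0.136).

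*Sox10*, at chr15:79154908-79165240 on the minus strand, read 380 and 375 FPKM at Day 0, 579 and 563 at Day 1, 476 and 506 at Day 2, and 505 and 367 at Day 3. Day 1 held the highest libraries, and of the Day 3 libraries replicate 1 lay within Day 2 and replicate 2 below Day 0. The log2 change from Day 0 to Day 1 was 0.60 (SE 0.16, limma adjusted p = 0.0494), a call that was lost without any of the 6 libraries of Days 0, 1 and 2 (log2 change 0.58 to 0.62, adjusted p 0.0800 to 0.223) and with a pseudocount of 0.1 (adjusted p = 0.0607), no filter (adjusted p = 0.0806) or no trend (adjusted p = 0.122). With each of these 3 settings 5 factors were called from Day 0 to Day 1, against 7. All genes called then numbered 1269 of 12208, 1371 of 15267 and 1269 of 12208, against 1538 of 12208. From Day 0 to Day 3 the value was 0.19 (SE 0.16, limma adjusted p = 0.388), or 0.50 relative to all genes, and it was 0.51 after median ratio scaling and 0.73 after quantile normalization, both called. Without Day 3 replicate 1 the sign turned, to -0.04, and Day 3 was then called lower than Day 1 (-0.64, adjusted p = 0.0236; -0.41, adjusted p = 0.121 with all libraries, or -0.20 relative to all genes).

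*Sox8*, a closely related SoxE factor that shares functions with Sox10 in OLs, lies at chr17:25565892-25570686 on the minus strand. It read 130 and 135 FPKM at Day 0, 193 and 212 at Day 1, 151 and 125 at Day 2, and 109 and 72.0 at Day 3. Day 1 was highest and Day 3 lowest, with no overlap between these days and any other. Day 3 was below Day 1 by a log2 change of -1.18 (SE 0.20, limma adjusted p = 0.00605), or -0.98 relative to all genes. The change from Day 0 to Day 3 was -0.58 (SE 0.20, limma adjusted p = 0.0484), or -0.26 relative to all genes, and this call was lost under each of the 3 other scalings (adjusted p up to 0.304), with a pseudocount of 0.1, no filter, only the days compared or no trend (adjusted p 0.0550 to 0.103), and without any library but Day 3 replicate 1 (log2 change -0.60 to -0.28, adjusted p 0.0595 to 0.251). The change from Day 0 to Day 1 was 0.61 (SE 0.20, limma adjusted p = 0.0854), called without Day 3 replicate 1 (adjusted p = 0.0267) or Day 3 replicate 2 (adjusted p = 0.0268), after median ratio scaling (0.69, adjusted p = 0.0434) and with only the days compared (adjusted p = 0.0269), and that from Day 2 to Day 3 was -0.63 (SE 0.20, limma adjusted p = 0.192), called without Day 3 replicate 1 (-0.92, adjusted p = 0.0427). An antisense gene, *2810468N07Rik*, shares 329 exonic bases with *Sox8* and read 47.8 to 136 FPKM, highest in Day 1 replicate 2. Whether strand was used in counting is not given in the sources used here, so the values of *Sox8*, and those of *Nkx2-2*, *Nkx6-2* and *Zeb2*, which also share exonic bases with an opposite-strand gene in the table, are uncertain to that extent.

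*Nkx2-2*, a repressor known to act on *Pdgfra*, lies at chr2:147177546-147194243 on the minus strand. It read 52.1 and 66.7 FPKM at Day 0, 170 and 214 at Day 1, 53.2 and 36.1 at Day 2, and 31.1 and 16.7 at Day 3. The Day 1 libraries stood above all others, and both Day 3 libraries were below all others. The rise to Day 1 was 1.68 on the log2 scale (SE 0.30, limma adjusted p = 0.00873) and the drop to Day 2 was -2.09 (SE 0.30, limma adjusted p = 0.0141), or -1.91 relative to all genes. Between Day 1 and Day 3 the log2 change was -3.01 (SE 0.30, limma adjusted p = 0.00117), or -2.80 relative to all genes, which placed *Nkx2-2* at rank 12199 of 12208 genes from the highest change to the lowest. Day 3 was also below Day 0, by -1.33 (SE 0.30, limma adjusted p = 0.00939), or -1.02 relative to all genes. The further fall from Day 2 to Day 3 was -0.91 (SE 0.30) and was not called (limma adjusted p = 0.211).

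Some of these *Nkx2-2* calls were lost when a single library was left out, while each change kept its direction. Fewer libraries entered those fits, and the cause of the losses was not tested. The rise to Day 1 was not called without Day 0 replicate 1 (1.5, adjusted p = 0.0760) or Day 1 replicate 2 (1.51, adjusted p = 0.0653). The drop to Day 2 was not called without Day 1 replicate 1 (-2.26, adjusted p = 0.0633), Day 1 replicate 2 (-1.93, adjusted p = 0.0576) or Day 2 replicate 2 (-1.82, adjusted p = 0.130), nor with no trend (adjusted p = 0.0511). The difference between Day 3 and Day 0 was not called without Day 0 replicate 2 (-1.16, adjusted p = 0.0655). The Day 1 to Day 3 change was called without each library in turn. An antisense gene, *Nkx2-2os* (listed as *Nkx2-2as*), shares 278 exonic bases and read 1.24 to 5.74 FPKM.

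*Nkx6-2*, a homeodomain factor expressed in maturing OLs, lies at chr7:139579376-139582797 on the minus strand. It read 21.0 and 4.99 FPKM at Day 0, 90.5 and 69.5 at Day 1, 42.1 and 80.5 at Day 2, and 53.3 and 79.1 at Day 3. Both Day 0 libraries were below all others, while Days 1, 2 and 3 overlapped. The Day 0 replicate 2 value rests on about 12 fragments. The log2 change was 2.81 to Day 1 (SE 0.55, limma adjusted p = 0.0133), the 11th highest of 12208 genes, and 2.52 to Day 3 (SE 0.55, limma adjusted p = 0.00827), or 2.84 relative to all genes. Without Day 0 replicate 2 the values were 1.87 to Day 1 and 1.59 to Day 3, without Day 0 replicate 1 they were 3.74 and 3.46, and all 4 were called. The Day 1 call was lost without Day 1 replicate 1 (2.62, adjusted p = 0.0634) or Day 1 replicate 2 (3.0, adjusted p = 0.0551). *Inpp5a*, on the opposite strand, shares 246 exonic bases with *Nkx6-2*, and read 6.28 to 18.1 FPKM on Days 0 to 2 and 38.9 and 42.9 at Day 3.

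RefSeq promoter windows of 300 bases on GRCm38.p6, around the start site, were found for 6 of the 10 factors. That of *Nkx2-2* lies inside the span given above for the gene, away from the 5′ end of that span at 147194243. The windows of the homeobox pair and of *Olig2* and *Sox8*, each with a paralog among the factors, are printed because these factors moved in different ways. Capitals mark any match, on either strand, to CANNTG (the E-box, in 72.3% of 32851 windows of the same length), its forms CAGCTG (16.3%) and CACCTG (20.2%, the form bound by Zeb factors), ACAAAG (18.7%, a SOX core) or CTGGCAC (5.01%, a Myrf motif).
*Nkx2-2* (chr2:147186353-147186652, minus strand): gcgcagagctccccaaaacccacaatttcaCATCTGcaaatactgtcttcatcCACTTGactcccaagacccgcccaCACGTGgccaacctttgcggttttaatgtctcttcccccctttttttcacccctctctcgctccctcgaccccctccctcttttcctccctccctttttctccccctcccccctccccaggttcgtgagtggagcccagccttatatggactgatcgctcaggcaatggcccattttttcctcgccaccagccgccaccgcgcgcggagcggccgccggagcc
*Nkx6-2* (chr7:139582748-139583047, minus strand): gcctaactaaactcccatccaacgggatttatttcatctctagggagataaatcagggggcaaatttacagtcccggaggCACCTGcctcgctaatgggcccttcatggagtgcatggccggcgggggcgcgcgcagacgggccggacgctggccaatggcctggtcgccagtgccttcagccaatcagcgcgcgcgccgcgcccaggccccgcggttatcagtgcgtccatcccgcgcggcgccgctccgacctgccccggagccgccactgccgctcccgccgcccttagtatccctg
*Sox8* (chr17:25570637-25570936, minus strand): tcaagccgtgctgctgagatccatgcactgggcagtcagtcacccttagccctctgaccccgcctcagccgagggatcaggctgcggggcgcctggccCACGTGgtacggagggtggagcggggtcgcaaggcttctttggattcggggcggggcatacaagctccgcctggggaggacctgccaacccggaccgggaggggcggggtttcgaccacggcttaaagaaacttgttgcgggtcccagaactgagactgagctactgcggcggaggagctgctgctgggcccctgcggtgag
*Olig2* (chr16:91225300-91225599, plus strand): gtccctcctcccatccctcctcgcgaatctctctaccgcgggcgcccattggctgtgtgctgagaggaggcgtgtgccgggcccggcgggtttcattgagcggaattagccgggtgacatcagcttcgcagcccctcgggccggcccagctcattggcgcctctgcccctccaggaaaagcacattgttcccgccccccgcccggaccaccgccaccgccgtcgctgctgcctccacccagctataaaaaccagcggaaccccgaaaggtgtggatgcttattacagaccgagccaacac
The *Nkx2-2* window held 3 E-boxes, those of *Nkx6-2* and *Sox8* held 1 each, the former of the CACCTG form, and the *Olig2* window held none of the motifs searched. The window of *Zfp488* held 1 CAGCTG, and of 4 windows of *Zeb2* 3 held none of the motifs and 1 held ACAAAG. A match is a description of the letters only.

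*Myrf*, at chr19:10208272-10240748 on the minus strand, read 56.1 and 63.9 FPKM at Day 0, 149 and 212 at Day 1, 302 and 387 at Day 2, and 327 and 308 at Day 3. Each day up to Day 2 was above the one before with no overlap, and the Day 3 libraries lay within the range of Day 2. The log2 change was 1.56 to Day 1 (SE 0.19, limma adjusted p = 0.00172) and 2.39 to Day 3 (SE 0.19, limma adjusted p = 0.000121), or 2.70 relative to all genes, both called under every alternative run. The step from Day 1 to Day 2 was 0.94 (SE 0.19, limma adjusted p = 0.0402), and 1.12 relative to all genes. This call was lost without either Day 0 library, Day 1 replicate 1 or either Day 2 library (0.68 to 1.11, adjusted p 0.0616 to 0.254), and with a pseudocount of 0.1, no filter, only the days compared or no trend (adjusted p 0.0503 to 0.101). Day 3 stayed above Day 1 by 0.83 (SE 0.19, limma adjusted p = 0.0219), or 1.03 relative to all genes, a call that was lost without Day 1 replicate 1 (0.58, adjusted p = 0.104), Day 3 replicate 1 (0.78, adjusted p = 0.0663) or Day 3 replicate 2 (0.87, adjusted p = 0.0762), and with only the days compared (adjusted p = 0.0532) or no trend (adjusted p = 0.0598).

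*Zeb2*, which represses BMP and Smad signalling targets, lies at chr2:44983632-45117395 on the minus strand. It read 52.8 and 46.1 FPKM at Day 0, 121 and 129 at Day 1, 111 and 87.8 at Day 2, and 93.0 and 88.8 at Day 3. Both Day 0 libraries were below all later ones and both Day 1 libraries were above all others. The log2 change was 1.32 to Day 1 (SE 0.15, limma adjusted p = 0.00135) and 0.87 to Day 3 (SE 0.15, limma adjusted p = 0.00273), or 1.18 relative to all genes. The fall after Day 1 was not called. From Day 1 to Day 2 it was -0.33 (SE 0.15, limma adjusted p = 0.241), or -0.15 relative to all genes. From Day 1 to Day 3 it was -0.45 (SE 0.15, limma adjusted p = 0.0693), or -0.25 relative to all genes and -0.22 after median ratio scaling. The antisense gene *Zeb2os* (listed as *Gm13476*) shares 653 exonic bases and read 3.12 to 12.4 FPKM.

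*Zfp488*, a corepressor that interacts with Olig2, lies at chr14:33967070-33978764 on the minus strand. It read 63.1 and 74.2 FPKM at Day 0, 89.3 and 107 at Day 1, 110 and 93.8 at Day 2, and 83.5 and 73.8 at Day 3. Days 1 and 2 were above Days 0 and 3, and the outer days overlapped. The log2 change to Day 1 was 0.51 (SE 0.16, limma adjusted p = 0.0745), called after same-sum (adjusted p = 0.0442) and median ratio scaling (adjusted p = 0.0419), and that to Day 3 was 0.20 (SE 0.16, limma adjusted p = 0.353), or 0.51 relative to all genes, called after median ratio scaling (0.51, adjusted p = 0.0337). The fall from Day 2 to Day 3 was not called (-0.37, SE 0.16, limma adjusted p = 0.339). Nor was that from Day 1 to Day 3 (-0.31, SE 0.16, limma adjusted p = 0.206), or -0.11 relative to all genes.

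Ratios within a library do not change when all its values are multiplied by the same number, though quantile normalization can move them, and 4 pairs were followed. *Myrf* relative to *Sox10* read 0.148 and 0.171 at Day 0, 0.258 and 0.377 at Day 1, 0.634 and 0.765 at Day 2, and 0.648 and 0.838 at Day 3. The slope of the difference in log2(FPKM + 1) was 0.77 per day (two-sided exact permutation p = 0.00159 over 2520 arrangements, adjusted over the 4 pairs p = 0.00635), and 0.72 after quantile normalization. *Nkx6-2* relative to *Nkx2-2* read 0.402 and 0.0749 at Day 0, 0.533 and 0.325 at Day 1, 0.792 and 2.23 at Day 2, and 1.72 and 4.75 at Day 3, with a slope of 1.32 per day (exact permutation p = 0.00476, adjusted p = 0.00635), and 1.36 after quantile normalization. *Nkx2-2* was thus the more abundant of the pair in all libraries of Days 0 and 1 and *Nkx6-2* in both of Day 3.

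*Sox8* relative to *Sox10* read 0.342 and 0.361 at Day 0, 0.333 and 0.377 at Day 1, 0.316 and 0.247 at Day 2, and 0.216 and 0.196 at Day 3. Days 0 and 1 overlapped and the ratio was lowest at Day 3, with a slope of -0.26 per day (exact permutation p = 0.00476, adjusted p = 0.00635), and -0.45 after quantile normalization. *Olig1* relative to *Olig2* read 3.28 and 3.56 at Day 0, 2.03 and 1.80 at Day 1, 2.06 and 1.90 at Day 2, and 2.60 and 3.44 at Day 3. It was lower on Days 1 and 2 than on Days 0 and 3, and its slope did not pass the test (-0.05 per day, exact permutation p = 0.697) and turned sign after quantile normalization (0.12, exact permutation p = 0.471).

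**Figure D3:**
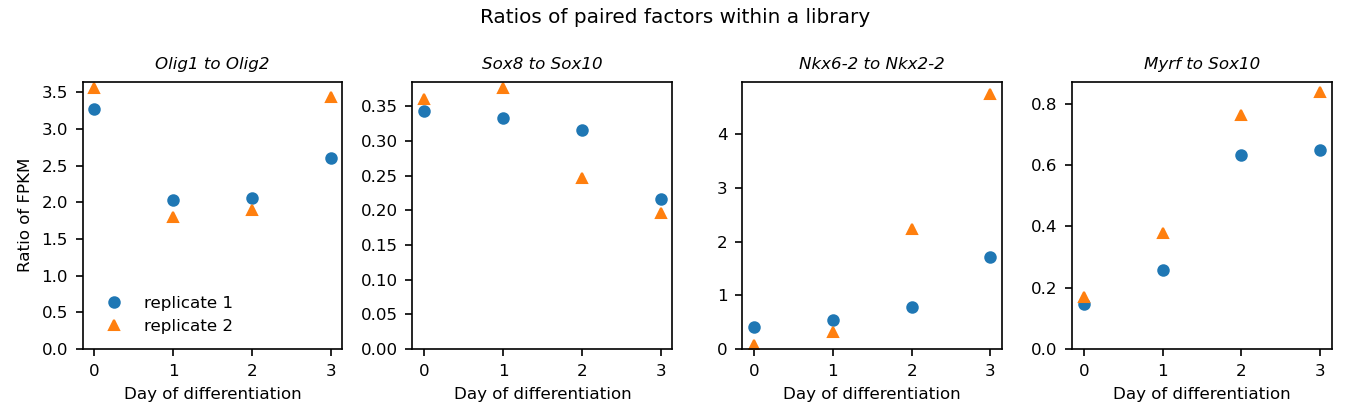
Ratio of the FPKM of the named pair (vertical axes, from 0) in each library by day of differentiation (horizontal axes). The ratio of *Myrf* to *Sox10* went from 0.148 and 0.171 on Day 0 to 0.648 and 0.838 at Day 3, and that of *Olig1* to *Olig2* was lowest on Days 1 and 2.

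Of 12 close paralogs of the factors, 5 were at 0 in all libraries (*Olig3*, *Nkx2-9*, *Nkx6-1*, *Nkx6-3* and *Bhlhe23*) and 3 were tested. *Zeb1*, the paralog of *Zeb2* that is linked to proliferating cells, read 77.8 and 82.3 FPKM on Day 0 and 18.3 and 10.6 at Day 3, a log2 change of -2.44 (SE 0.35, limma adjusted p = 0.00115), or -2.12 relative to all genes, while *Zeb2* rose. *Sox9*, another SoxE gene, read 27.5 and 69.0 FPKM on Day 0 and 1.77 to 9.82 in the later libraries, with a log2 change of -2.54 to Day 3 (SE 0.61, limma adjusted p = 0.0123), or -2.23 relative to all genes. *Zeb1* had stood above *Zeb2* in both Day 0 libraries and below it in all others.

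Of 16 E proteins that pair with Olig factors and chromatin factors, 12 were lower on Day 3 than on Day 0 and 0 were higher, against 26.3% and 12% of all genes, with a median log2 change of -0.84 against -0.31 for all genes. After the 3 other scalings 9 or 10 were lower, against 16.8% to 20.8% of all genes. *Tcf3* read 49.0 and 42.1 FPKM on Day 0 and 23.2 and 10.4 at Day 3, and *Tcf12* read 134 and 125, then 64.2 and 42.0. *Tcf4*, an E protein expressed in OLs, was highest on Day 1 like *Nkx2-2*, at 89.5 and 86.7 FPKM at Day 0, 182 and 156 at Day 1, 79.5 and 56.2 at Day 2, and 52.5 and 48.2 at Day 3. Its log2 change was 0.93 to Day 1 and -1.32 from Day 1 to Day 2 (-1.13 relative to all genes), both called. *Smarcc1*, a subunit of the BAF remodelling complex that acts with Smarca4, had the lowest change of the list at -1.60 (SE 0.16, limma adjusted p = 0.000219), or -1.28 relative to all genes.

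Of 19 progenitor and inhibitor factors, 11 were lower on Day 3 than on Day 0 and 0 were higher (26.3% and 12% of all genes), with a median of -0.93 against -0.31, and 8 or 9 were lower after the other scalings (16.8% to 20.8%). *Etv5*, an ETS factor of growth factor signalling, read 74.0 and 75.9 FPKM on Day 0 and 3.54 to 8.47 afterwards, and *Hes5*, a Notch effector that inhibits OL genes, read 34.8 and 17.9 on Day 0 and 2.88 and 0.820 at Day 3. Of 15 other differentiation factors tested, 8 were higher and 1 was lower (12% and 26.3% of all genes, list median 1.07). *Tmem98*, an inhibitor of Myrf cleavage, read 10.8 and 13.5 FPKM at Day 0, 5.85 and 8.98 at Day 1, 46.6 and 115 at Day 2, and 130 and 155 at Day 3. Its Day 1 libraries were below those of Day 0, a drop that limma did not call. Of the 15 factors tested, 0 were called lower on Day 1 than at Day 0 (7.56% of all genes). The *Myrf* libraries of Day 1 were already above those of Day 0, and a link between these genes was not tested.

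Of 27 myelin and OL targets tested, 12 were higher on Day 1 than on Day 0 (1 was lower) and 24 were higher on Day 3 (0 lower), with median log2 changes of 1.13 and 3.83. Of all genes, 5.04% were higher and 7.56% lower on Day 1, and 12% and 26.3% on Day 3. *Mbp*, with the highest mean over the 8 libraries, though not the highest level on Days 0 and 1 or in Day 2 replicate 1, read 65.2 and 82.2 FPKM at Day 0, 344 and 530 at Day 1, 3499 and 6328 at Day 2, and 8753 and 11945 at Day 3. *Mog*, a late myelin gene, read 0.764 and 2.39 FPKM on Day 0 and 114 and 146 at Day 3. Both Day 3 libraries of *Mbp* were above both of Day 2, while those of *Myrf* lay within its Day 2 range, and neither difference was called. Of 11 progenitor markers tested, 3 were higher and 5 lower on Day 1, and 0 were higher and 8 lower on Day 3 (median -1.50). After the other scalings 5 to 7 were lower on Day 3 (16.8% to 20.8% of all genes), and 1 was higher after median ratio scaling (17.5%). *Gpr17*, with the highest mean of these, read 232 and 279 FPKM at Day 0, 454 and 449 at Day 1, and 185 and 116 at Day 3. *Pdgfra*, the panning antigen, read 490 and 396 FPKM on Day 0 and 29.2 and 6.53 at Day 3.

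Genes of the BMP and Smad pathway, which Zeb2 is known to oppose, had 2 of 11 higher and 1 lower on Day 3, against 12% and 26.3% of all genes. Their median was -0.08, and it turned sign under the other scalings (0.06 to 0.22), where 0 were lower (16.8% to 20.8% of all genes). *Smad7*, an inhibitory Smad that has been described as a Zeb2 target, read 1.76 and 2.20 FPKM at Day 0, 3.30 and 5.28 at Day 1, 11.1 and 13.9 at Day 2, and 24.4 and 31.7 at Day 3, a log2 change of 3.28 (SE 0.28, limma adjusted p = 0.000132), or 3.59 relative to all genes. Its libraries did not overlap between days, and the step from Day 1 to Day 2 was called (1.37, or 1.55 relative to all genes), whereas *Zeb2* was highest at Day 1.

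**Figure D4:**
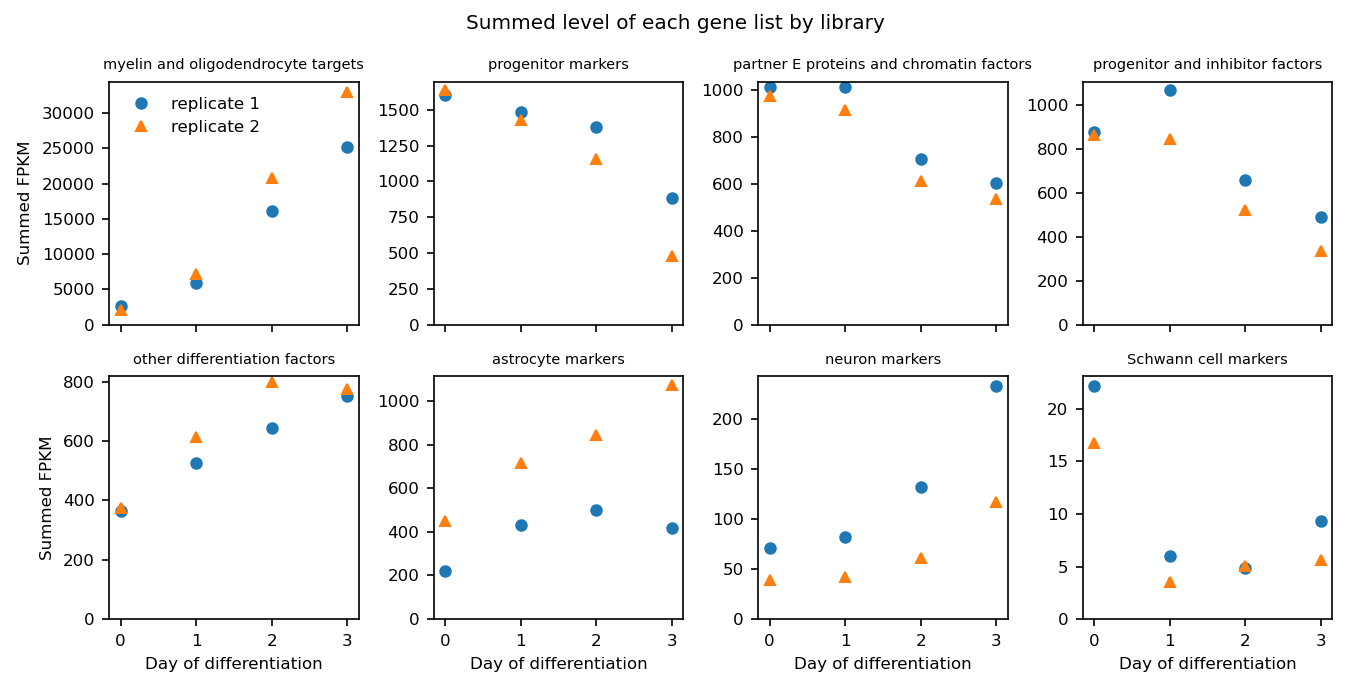
Summed FPKM (vertical axes, from 0) of 8 gene lists in each library by day of differentiation (horizontal axes). Myelin and OL targets went from 2566 and 2126 FPKM on Day 0 to 25193 and 32952 at Day 3, and astrocyte markers were higher in replicate 2 on every day.

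Markers of other cells varied between replicates. The 10 astrocyte markers summed to 219 and 449 FPKM at Day 0, 433 and 714 at Day 1, 498 and 843 at Day 2, and 418 and 1072 at Day 3, with replicate 2 higher on every day. *Gfap* had the highest mean over the 8 libraries, though not the highest level in any replicate 1 library, at 14.7 and 154 FPKM on Day 0 and 45.5 and 603 at Day 3, and none of the defining markers *Gfap*, *Aqp4* and *Aldh1l1* was at 0 in all libraries. Of 9 astrocyte markers tested, 1 was higher and 1 was lower on Day 3 than at Day 0 (12% and 26.3% of all genes). The lower one was *Sox9*, which is also among the close paralogs and the progenitor and inhibitor factors. The 10 neuron markers summed to 70.6 and 39.4 FPKM on Day 0 and 233 and 117 at Day 3, of which *Tubb3* alone made up 60.2 and 20.8 FPKM, then 231 and 113. The defining markers read 2.15 and 8.46 FPKM on Day 0 and 0 and 1.48 at Day 3 (*Snap25*), 2.05 and 1.72, then 0.969 and 1.1 (*Syt1*), and 0 and 0, then 0.305 and 0 (*Rbfox3*). The neuron sum was higher in replicate 1 on every day (82.2 and 41.7 at Day 1, 132 and 61.4 at Day 2). Of the 5 tested, 1 (*Tubb3*) was higher and 2 were lower, with a median of -1.11, and 1 was lower after the other scalings (16.8% to 20.8% of all genes). The part of these cells in the results was not tested.

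Microglia markers summed to at most 2.51 FPKM, with *P2ry12* the highest on the mean of the libraries and *Cx3cr1*, *Csf1r* and *Tmem119* at 0 throughout. Endothelial markers summed to at most 4.0 FPKM, with *Kdr* the most abundant and *Cldn5* and *Cdh5* at 0, and mural cell markers to at most 2.30 FPKM, with *Acta2* the highest on that mean, at 0 in all replicate 1 libraries and 1.17 to 2.20 FPKM in replicate 2, and *Rgs5* at 0. The other defining markers, *Pecam1* (endothelial) and *Pdgfrb* and *Kcnj8* (mural), were not at 0 in all libraries. Schwann cell markers, which bear on the shared Sox10 program, summed to 3.50 to 22.2 FPKM with *Pou3f1* the highest on that mean, a gene that OPCs also express, and 2 of 4 tested were lower at Day 3 than at Day 0 (26.3% of all genes). After same-sum or median ratio scaling 1 was lower (20.8% and 16.8% of all genes) and after quantile normalization 0 were (17.9%). At Day 3, 1 was higher and 0 were lower than at Day 1 (7.04% and 12.2% of all genes). Between replicate numbers, the blocked limma fit called 0 of the 9 factors, and 0.680% of all genes higher and 0.369% lower in replicate 2. At an unadjusted p under 0.05 it was 0 factors, and 568 and 879 of all 12208 genes. The lowest adjusted p of a factor was 0.465, for *Myrf*.

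The genes whose course over the 8 libraries was most like that of each factor were ranked by Pearson r among 8200 genes, as a description of libraries that share 4 days. *Olig1* ran closest to *Ccnd1*, *Mcm2* and *Cdca8* (r = 0.991, 0.989 and 0.988), which act in the cell cycle. *Ccnd1*, for example, read 124 and 158 FPKM on Day 0 and 9.24 and 3.30 at Day 1. *Olig2* ran closest to *Lmnb1*, *Eny2* and *Rbm38* (r = 0.994, 0.992 and 0.991).

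*Sox8* ran closest to *Cep68*, *Sox2* and *Dlgap1* (r = 0.991, 0.988 and 0.984). Its likeness to *Nkx2-2* was r = 0.958, the highest between any 2 of the factors. *Nkx2-2* ran closest to *Atp6v0e*, *Rps6kb1* and *Stk25* (r = 0.985, 0.977 and 0.974), and *Sox10* to *Polr3d*, *Isca2* and *Zfp579* (r = 0.968, 0.967 and 0.966). The nearest to *Myrf* were *Sema4d*, *Sirt2* and *Sema5a* (r = 0.998, 0.996 and 0.995), and *Sirt2*, a deacetylase abundant in myelin, read 173 and 190 FPKM on Day 0 and 2585 and 2840 at Day 2. Nearest to *Zeb2* were *Far1*, *Map4k5* and *Arhgap5* (r = 0.993, 0.988 and 0.978), to *Zfp488* *Ppp3ca*, *Skil* and *Smap1* (r = 0.979, 0.967 and 0.964), and to *Nkx6-2* *Cmtm5*, *Taf13* and *Sqstm1* (r = 0.954, 0.952 and 0.945). The lowest r between factors was -0.93, of *Olig1* with *Zeb2*.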

How the data were processed

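Per the study's methods, RNA came from 2 independent replicates of cultured cells per day, and stranded mRNA libraries were sequenced. The authors deposited FPKM per library, used as they stand. Per the submitters' processing notes the build was mm10. Reads were processed in OmicSoft ArrayStudio per the study's methods. Aligner, gene model and use of strand in counting are not given in the sources used here. Libraries were grouped by day from the labels. FPKM are not counts, so limma 3.58.1 (R 4.3.3) was fitted to log2(FPKM + 1) with day as a factor and a trend, over 12208 genes reaching 1 FPKM in 2 or more libraries, with Benjamini-Hochberg adjustment over all of them and a threshold of 0.05. The added 1 shrinks fold changes of low genes. The fit and the slope test were tested on simulated data, and no outcome of that is given here. Ratio slopes used two-sided exact permutation over the 8 libraries, for which the smallest possible p is 0.000794, adjusted over 4 pairs. Coordinates and overlaps come from GENCODE M21 on GRCm38, the assembly of mm10, and promoters from RefSeq. Depth per library, estimated because no counts were used here, was 1530000 and 1230000 fragments at Day 0, 1230000 and 1280000 at Day 1, 1220000 and 1330000 at Day 2, and 1090000 and 960000 at Day 3, and floors cover counting error only. Python 3.11.15, pandas 2.3.3, numpy 2.4.6, scipy 1.17.1 and matplotlib 3.10.9 were used. The factors and lists were chosen with earlier results of these data known.

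Named genes were the 10 factors; from each list, up to 4 called genes with the largest absolute change from Day 0 to Day 3, its defining markers and its most abundant gene by mean over the libraries; any close paralog or E protein partner; and the 3 genes with the highest Pearson r with each factor, among tested genes of at least 10 FPKM in some library. Genes overlapping a factor, Day 3 against Day 1, and the 3 scalings of slopes and list counts were added after values were seen. Replicate numbers in the titles were checked as pairs: deviations of libraries with the same number correlated across genes at r = 0.164 to 0.285 in all 6 pairs of days, so a replicate block was run as an alternative. The others were a pseudocount of 0.1, no filter, a filter of 10 FPKM, same-sum, median ratio and quantile scaling, only the days compared, no trend, and each library left out.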

Additional observations from a re-analysis of the deposited data

How the results depend on the processing

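Each comparison was repeated under 9 other settings and without each of the 8 libraries, where the lone library of a day was assumed to vary like the other groups. The calls of *Olig1*, *Olig2*, *Nkx6-2*, *Myrf* and *Zeb2* from Day 0 to Day 3, of *Olig1*, *Myrf* and *Zeb2* from Day 0 to Day 1 and of *Sox8* and *Nkx2-2* from Day 1 to Day 3 held in all of these, and the replicate block changed no call of a factor. From Day 1 to Day 2, 1 factor was called with a pseudocount of 0.1, no filter or only the days compared, and 0 with no trend, against 2. All genes called there numbered 368 with a pseudocount of 0.1, 803 with the replicate block and 121 with no trend, against 475, each of 12208 tested. They numbered 247 of 15267 with no filter and 219 of 11278 with only the days compared. From Day 2 to Day 3 they numbered 8 with a pseudocount of 0.1, 0 with no filter, 163 with the replicate block, 6 with only the days compared and 0 with no trend, against 36, and from Day 1 to Day 3, a comparison chosen after seeing the data, 1365 with only the days compared, against 2344. Signs turned for *Olig1* from Day 1 to Day 2 with median ratio scaling (0.033), and with quantile normalization for *Sox10* from Day 1 to Day 2 (0.017) and *Myrf* from Day 2 to Day 3 (0.19). Leaving out single libraries gave 2701 to 4568 genes called from Day 0 to Day 3, 565 to 1625 from Day 0 to Day 1, 11 to 574 from Day 1 to Day 2, 0 to 249 from Day 2 to Day 3, 920 to 2152 from Day 1 to Day 3 and 2245 to 4064 over the 4 days. The factors called were then 3 to 8 from Day 0 to Day 1 (7 with all libraries), 0 to 2 from Day 1 to Day 2 and 0 to 1 from Day 2 to Day 3. Log2 changes that crossed 0 were those of *Sox10* from Day 0 to Day 3 (-0.039 to 0.42), of *Olig1* (-0.35 to 0.019), *Nkx6-2* (-0.90 to 0.022) and *Zfp488* (-0.071 to 0.18) from Day 1 to Day 2, and of *Sox10* (-0.42 to 0.041), *Nkx6-2* (-0.30 to 0.61), *Myrf* (-0.29 to 0.071) and *Zeb2* (-0.29 to 0.049) from Day 2 to Day 3, none of them called with all libraries. The slope of *Olig1* to *Olig2* ran from -0.18 to 0.047 and was 0.12 with quantile normalization, and the other 3 slopes kept an exact permutation p under 0.05. Fewer libraries or genes entered some of these fits, and otherwise the cause was not tested.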
